A study of Mus musculus with 7 samples.

Results

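The secreted Wnt antagonists and modulators examined here are 10 genes out of 54532 features in the count table. They were listed by name, with earlier results of these data known. They are the dickkopf genes Dkk1, Dkk2 and Dkk3, the secreted frizzled-related genes Sfrp1, Sfrp2, Sfrp4, Sfrp5 and Frzb, the Wnt inhibitory factor gene Wif1, and Notum. All 10 were found by symbol. Messenger RNA had been sequenced from C3H10T1/2 cells, an established mouse mesenchymal line that is multipotent in culture. In the OB group, 4 libraries came from cultures induced for 3 days in complete medium with 50 μM ascorbic acid, 10 mM β-glycerophosphate, penicillin-streptomycin and dexamethasone, a synthetic glucocorticoid whose dose the labels write ambiguously. Control cultures, with 3 libraries, were left untreated. Both groups were grown from a single line in MEM with fetal bovine serum, the series has no arm with only 1 of the supplements, and its design text calls the replicates biological. The comparison asked which of these genes differ between OB cultures after 3 days of induction and control cultures, for which no day is recorded. Whether the groups were matched for time in culture is therefore not known.

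Wnt proteins are lipid-modified ligands that bind frizzled receptors together with the co-receptors LRP5 and LRP6, and in the canonical pathway they stabilise β-catenin. Secreted antagonists act outside the cell, and in bone several of them are known as brakes on bone formation. Sfrp proteins, Frzb and Wif1 bind Wnt ligands themselves. Dkk1 and Dkk2 instead bind LRP5 and LRP6, often together with Kremen proteins, and Notum is an extracellular enzyme that removes the lipid from Wnt.

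Total counts were 21213328 to 43403730 in the OB libraries and 25689889 to 46530017 in the control libraries. Levels are given as CPM, the count scaled to a common library total, on which 3 counts in 1 library come to 0.0639 to 0.139 CPM. Glucocorticoid response separated the groups: Tsc22d3 stood at 403 to 592 CPM in OB and 29.8 to 46.7 CPM in control, and Fkbp5 at 358 to 444 CPM in OB and 14.5 to 49.3 CPM in control. All 12 stromal markers were tested, with single values from 0.171 to 13700 CPM. Their summed level was 20410 to 29930 CPM in OB and 27570 to 34080 CPM in control. Of 6 markers each, 3 for macrophages, 1 for endothelial cells and 1 for epithelial cells were also abundant enough to test. The summed level in any library was at most 4.64 CPM for macrophages (Adgre1 at 0) and 10.4 CPM for endothelial cells (Tie1 at 0). For epithelial cells it was at most 3.59 CPM (Epcam at 0). Control 3 stood apart, at -96.9 on the first principal component against -23.0 and -25.3 for control 1 and 2, while the OB libraries lay between 20.0 and 52.0. The submitters' descriptions also form label sets that cross the groups: C1 for OB 1 and control 1, C2 for OB 2 and control 2, and no C number for OB 3, OB 4 and control 3. What the prefixes stand for is not given. In bulk RNA, fewer cells of a type and less RNA per cell cannot be told apart.

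The repertoire was dominated by Sfrp2 and Sfrp1. Per kilobase of exon, so that genes can be compared with each other, Sfrp2 averaged 25.1 ± 12.1 CPM per kilobase in OB (SD, n = 4) and 32.7 ± 30.1 in control (SD, n = 3), and Sfrp1 averaged 24.5 ± 7.21 in OB and 11.3 ± 6.25 in control. A middle tier followed over all 7 libraries, with Notum at 3.01 ± 1.71 CPM per kilobase, Dkk3 at 2.58 ± 1.28 and Dkk2 at 2.02 ± 1.05 (SD, n = 7). Frzb at 0.362 ± 0.400, Sfrp4 at 0.107 ± 0.0806, Sfrp5 at 0.0873 ± 0.0824 and Wif1 at 0.0252 ± 0.0463 CPM per kilobase lay below, and Dkk1 had 0 counts in every library. All genes of the upper tier exceeded all of the middle tier in 6 of 7 libraries, the exception being control 3, where Sfrp2 at 2.10 CPM per kilobase lay below Dkk3 at 3.49. The middle tier exceeded the lower in 6 of 7, the exception being control 2, where Dkk3 at 0.780 CPM per kilobase lay below Frzb at 0.959. The order of neighbours within a tier varied between libraries. Sfrp2 exceeded Sfrp1 in 5 of 7 libraries, Notum exceeded Dkk3 in 5 and Dkk3 exceeded Dkk2 in 4. In the lower tier Frzb exceeded Sfrp4 in 5, Sfrp4 exceeded Sfrp5 in 4 and Sfrp5 exceeded Wif1 in 6. Among the 15441 genes tested, the mean level per kilobase of Sfrp2 stood at the 88.0th percentile, that of Sfrp1 at the 81.4th and that of Dkk2 at the 32.6th. Of the exon bases of Notum 38.1%, and of Sfrp2 16.1%, overlap an opposite-strand gene, where fragments that hit both genes were not counted. Levels per kilobase used the full exon length, so those of Notum and Sfrp2, and their shares below, may be understated.

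**Figure D1:**
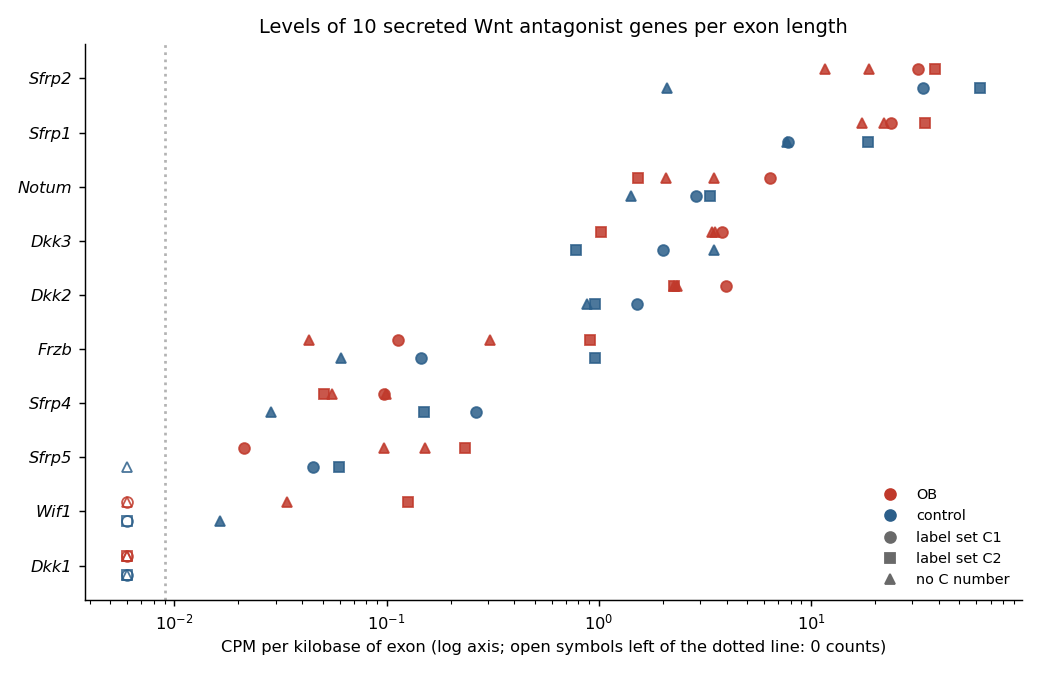
Level of each of the 10 genes in every library, in CPM per kilobase of exon on a log axis, with OB above control for each gene, symbol shapes for label sets and open symbols for 0 counts. Sfrp2 and Sfrp1 lie at the top, Notum, Dkk3 and Dkk2 form a middle tier, and Dkk1 is at 0 in all 7 libraries.

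At a threshold of 0.05 on p-values that were adjusted over all genes tested (edgeR quasi-likelihood test, Benjamini-Hochberg), 1 of the 10 genes rose and 0 fell. That gene was Dkk2. The filter on low counts kept 7, of which 6 were not called, and Dkk1, Sfrp5 and Wif1 were too rare to test. Of all 15441 genes tested, 8.04% were called, 4.32% as higher and 3.72% as lower in OB, and the single call among these 10 is read against that share. At an unadjusted p under 0.05, Dkk2 and Sfrp1 were higher in OB and 0 were lower, where 25.2% of all genes passed in either direction. By DESeq2, 2 of them were called higher, by limma-voom 1, and by neither was any called lower (0), where these tools called 16.5% and 15.1% of all genes. The median log2 fold change over the 7 tested genes was 0.40, against -0.004 over all genes tested.

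Dkk2, which encodes a ligand of LRP5 and LRP6 that can block or, in some settings, weakly activate the pathway, stood at 14.7, 8.37, 8.67 and 8.36 CPM in OB 1 to 4 and at 5.60, 3.56 and 3.25 CPM in control 1 to 3. Every OB library lay above every control library, which was so for 13.2% of all genes tested, and 25.5% had groups without overlap in either direction. The means were 10.0 ± 3.11 CPM in OB (SD, n = 4) and 4.14 ± 1.27 CPM in control (SD, n = 3) (log2 fold change 1.27 ± 0.30 SE, edgeR adjusted p = 0.0432). The difference was alike in each label set, with log2 ratios of 1.39 for OB 1 over control 1, 1.23 for OB 2 over control 2 and 1.39 for the mean of OB 3 and OB 4 over control 3. The direction held whichever library was left out (log2 fold change 1.02 to 1.54), but the call ended without any library except control 1 (adjusted p = 0.0703 to 0.138 by edgeR) and among the C1 and C2 libraries (0.0810). With every library kept, Dkk2 was also called by DESeq2 (adjusted p = 0.000787) and limma-voom (adjusted p = 0.0255). It was called by edgeR with the replicate number as a block (adjusted p = 0.0159) and with the label set as a block (0.00374). Dkk2 (ENSMUSG00000028031) lies at 132085292 to 132180304 on the plus strand of chromosome 3 of mm10, and 0% of its 3705 exon bases overlap another gene.

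The 250 bases before the RefSeq start of Dkk2 are shown because it is the only called gene of the 10, and those of Sfrp2 because it had the highest mean level per kilobase and a wide spread between control libraries. Both windows are on the plus strand of chromosome 3 of GRCm38.p6, at chr3:132085042-132085291 for Dkk2 and chr3:83766071-83766320 for Sfrp2, and both are read 5′ to 3′. Capitals mark a match to AGAACA, the hexamer of the palindromic site of the glucocorticoid receptor, on either strand (here as TGTTCT).
Dkk2: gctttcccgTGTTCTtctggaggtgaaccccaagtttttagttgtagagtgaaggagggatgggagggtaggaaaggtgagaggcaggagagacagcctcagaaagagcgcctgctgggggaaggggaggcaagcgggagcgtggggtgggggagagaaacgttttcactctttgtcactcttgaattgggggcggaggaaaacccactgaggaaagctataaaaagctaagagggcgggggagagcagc
Sfrp2: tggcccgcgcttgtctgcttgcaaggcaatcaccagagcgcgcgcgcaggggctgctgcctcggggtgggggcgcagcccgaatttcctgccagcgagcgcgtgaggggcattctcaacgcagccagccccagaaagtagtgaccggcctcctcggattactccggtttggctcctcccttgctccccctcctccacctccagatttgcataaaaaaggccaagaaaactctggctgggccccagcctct
In Dkk2 the match spans bases -241 to -236 from the start, and such a match occurs before the start in 16.1% of the 32851 promoter windows in the RefSeq table. Neither sequence holds TCAAAG, the core bound by TCF and LEF factors, on either strand, and that core occurs before the start in 13.8% of all windows. The table gave windows for 6 of the 10 genes, Frzb, Sfrp2, Dkk2, Wif1, Dkk1 and Sfrp5. TCAAAG occurred at -95 to -90 in Frzb and in Dkk1 at -174 to -169 and, on the minus strand, at -117 to -112, while AGAACA occurred in Dkk2 alone of the 6. The 2 motifs share no bases in these windows. A match in letters is a description and not a binding site.

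Dkk3, a divergent dickkopf gene whose product is not a typical LRP ligand, stood at 12.8, 3.46, 11.4 and 11.9 CPM in OB 1 to 4 and at 6.71, 2.62 and 11.7 CPM in control 1 to 3. The groups overlapped, and the library of set C2 was the lowest in each, at 3.46 CPM in OB 2 and 2.62 CPM in control 2. The log2 fold change was 0.50 ± 0.57 (SE, edgeR adjusted p = 0.631). Within label sets the log2 ratios were 0.93, 0.40 and -0.006 for C1, C2 and no C number. Dkk1, a classical inhibitor of bone formation, had 0 counts over both groups, which allows at most 0.0266 CPM in the pooled OB libraries and 0.0280 CPM in the pooled control libraries for a floor of 3 counts. Among their partners, all named after their values were seen, Lrp5 averaged 219 ± 74.8 CPM in OB (SD, n = 4) and 106 ± 61.7 CPM in control (SD, n = 3), and its log2 fold change was 1.05 ± 0.42 (SE, edgeR adjusted p = 0.169). Lrp6 averaged 284 ± 25.4 CPM in OB and 225 ± 46.4 CPM in control (edgeR adjusted p = 0.219). Kremen1, a Dkk receptor gene, averaged 89.2 ± 12.0 CPM in OB and 65.6 ± 3.57 CPM in control, and did not pass (edgeR adjusted p = 0.0660). Its groups did not overlap, which was so with OB higher for 13.2% of all genes tested. Kremen2 had at most 0.122 CPM in any library. Dkk3 (ENSMUSG00000030772) lies at 112116017 to 112159057 on the minus strand of chromosome 7 of mm10, and Dkk1 (ENSMUSG00000024868) at 30545863 to 30549665 on the minus strand of chromosome 19.

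Sfrp1, which encodes a Wnt-binding inhibitor expressed in the osteoblast lineage, stood at 104, 151, 96.7 and 76.1 CPM in OB 1 to 4 and at 33.9, 81.2 and 33.8 CPM in control 1 to 3. The groups overlapped through a single pair, OB 4 below control 2, and in the other 11 of 12 pairs of libraries OB was higher. The means were 107 ± 31.5 CPM in OB (SD, n = 4) and 49.6 ± 27.3 CPM in control (SD, n = 3), a log2 fold change of 1.11 ± 0.37 (SE), which did not pass (edgeR adjusted p = 0.106). Within label sets the log2 ratios were 1.62 for C1, 0.89 for C2 and 1.36 for no C number. With the replicate number as a block, where 8.76% of all genes were called, Sfrp1 passed (log2 fold change 1.34 ± 0.17, edgeR adjusted p = 0.0131), as it did by DESeq2 (adjusted p = 0.0213), with the label set as a block (0.00499) and without control 2 (0.0397). Over the alternatives tried, its log2 fold change stayed between 0.81 and 1.65, with adjusted p up to 0.215. Sfrp1 (ENSMUSG00000031548) lies at 23411502 to 23449632 on the plus strand of chromosome 8 of mm10.

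Sfrp2, a gene of mesenchymal cells with the highest mean level per kilobase of the 10 but below Sfrp1 in OB 3 and control 3, stood at 68.4, 82.3, 25.1 and 40.3 CPM in OB 1 to 4 and at 72.3, 134 and 4.52 CPM in control 1 to 3. The OB libraries lay inside the span of the control libraries, whose highest value was 29.7 times the lowest, against 3.27 times in OB. The log2 fold change was -0.38 ± 0.85 (SE, edgeR adjusted p = 0.819). Control 3 held 0.0438 of the mean level of control 1 and 2, and label sets did not share a sign. The log2 ratios were -0.08 for C1 and -0.71 for C2, but 2.85 for the libraries with no C number, where the fit with control 3 alone as control gave edgeR adjusted p = 5.93e-05 on the assumption that this lone library varies like OB 3 and OB 4. Without control 2 the log2 fold change was 0.48 ± 0.91, and with the replicate number as a block it was 0.42 ± 0.60 (edgeR adjusted p = 0.701). Of the Sfrp2 exon bases 16.1% overlap Gm26771 on the opposite strand, where fragments that hit both genes were not counted, and Gm26771 itself had at most 0.213 CPM in any library. Sfrp2 (ENSMUSG00000027996) lies at 83766321 to 83774316 on chromosome 3 of mm10.

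The balance between these genes differed from library to library. Sfrp1 and Sfrp2 together made up 78.2% to 92.2% of the summed level per kilobase of the 10 genes in OB, and 85.8%, 92.8% and 62.5% in control 1, 2 and 3. Sfrp2 alone held 45.4%, 48.5%, 27.0% and 42.0% in OB 1 to 4 and 69.8%, 71.5% and 13.4% in control 1 to 3. The ratio of Sfrp1 to Sfrp2 per kilobase was 0.750, 0.903, 1.90 and 0.931 in OB 1 to 4 and 0.231, 0.298 and 3.68 in control 1 to 3. Control 1 and 2 thus carried Sfrp2 far above Sfrp1, the OB libraries held both at closer levels, and control 3 lay beyond OB on the other side. The summed level itself was 59.1 ± 18.0 CPM per kilobase in OB (SD, n = 4) and 50.3 ± 35.8 in control (SD, n = 3), with the lowest sum in control 3 at 15.7 and the highest in control 2 at 87.2.

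**Figure D2:**
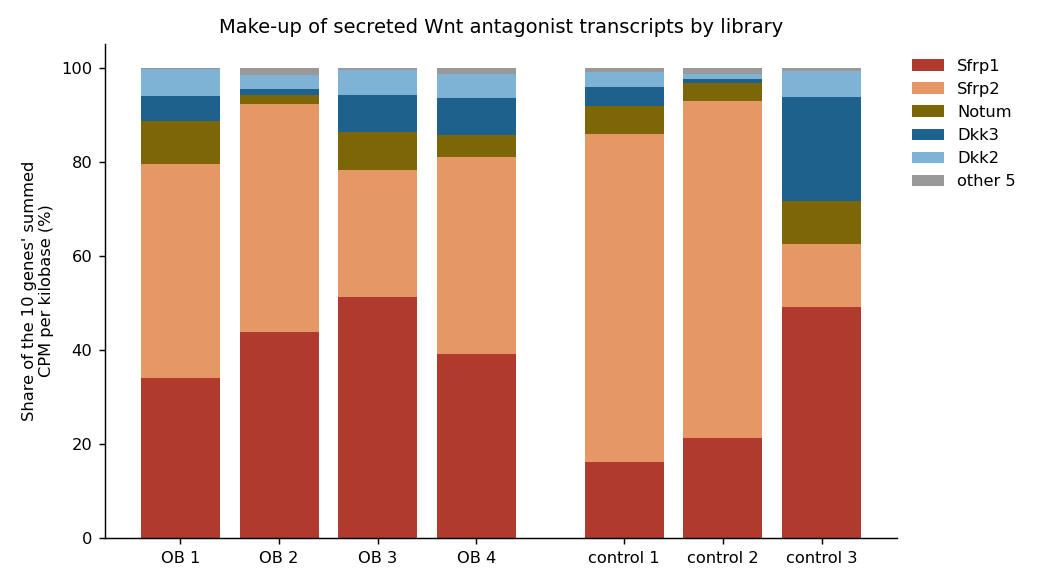
Share of each gene in the summed CPM per kilobase of the 10 genes, 1 bar per library with the OB libraries left of the control libraries. Sfrp2 takes 69.8% and 71.5% in control 1 and 2 but 13.4% in control 3, and 27.0% to 48.5% in OB.

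The remaining frizzled-related genes were rare. Frzb, also known as Sfrp3 and first described in cartilage, stood at 0.366, 2.94, 0.139 and 0.993 CPM in OB 1 to 4 and at 0.468, 3.10 and 0.198 CPM in control 1 to 3. The C2 library was the highest in each group, at 2.96 times the next library in OB and 6.63 times in control. Its log2 fold change was -0.13 ± 1.07 (SE, edgeR adjusted p = 0.955). Dkk3 ran the other way, with the C2 library below the next lowest by a factor of 3.31 in OB and 2.56 in control, and across the 7 libraries Frzb and Dkk3 had a Pearson correlation of -0.85, a description of libraries that share label sets and depth. Sfrp4, a gene linked to cortical bone thickness, had 10, 9, 5 and 10 counts in OB 1 to 4 and 52, 22 and 3 counts in control 1 to 3. Its log2 fold change was -1.03 ± 0.63 (edgeR adjusted p = 0.346), and it ranged from -1.49 ± 0.42 without control 3 (edgeR adjusted p = 0.0843) to -0.31 ± 0.67 without control 1 (edgeR adjusted p = 0.803). Frzb (ENSMUSG00000027004) lies at 80411970 to 80447625 on the minus strand of chromosome 2 of mm10, and Sfrp4 (ENSMUSG00000021319) at 19623104 to 19632994 on the plus strand of chromosome 13.

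**Figure D3:**
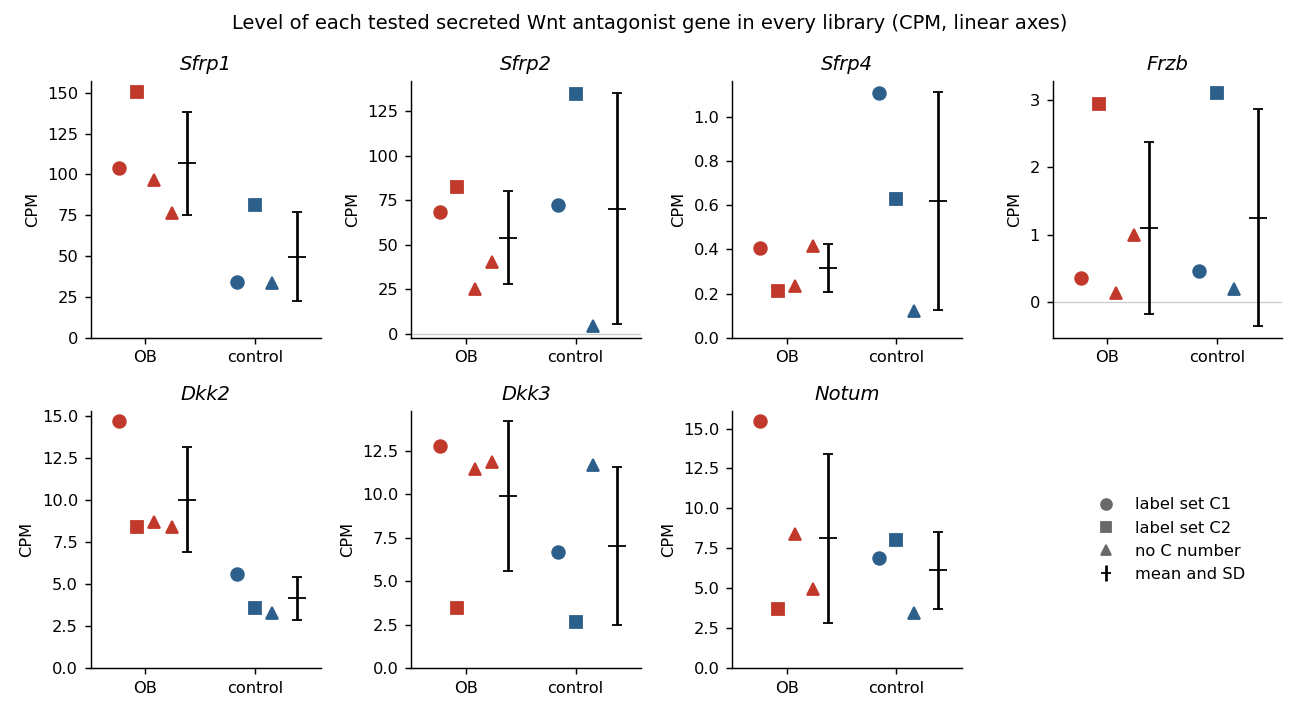
CPM of the 7 tested genes in every library on linear axes, OB left of control, with symbol shapes for label sets and the mean and SD beside each group (n = 4 OB, n = 3 control). Dkk2 is the only panel in which the groups do not overlap, and the C2 square is the highest point of both groups for Frzb and the lowest for Dkk3.

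Sfrp5 and Wif1 were near the floor. Sfrp5, known from fat tissue, had 1, 19, 4 and 7 counts in OB 1 to 4 and 4, 4 and 0 counts in control 1 to 3. Pooled, this was 0.275 CPM in OB (95% exact Poisson interval 0.187 to 0.390) and 0.0746 CPM in control (0.0322 to 0.147), intervals that cover counting error only. Wif1 had 15 counts over the OB libraries, 13 of them in OB 2, and 1 over the control libraries, a ratio of pooled CPM of 14.3 (95% exact binomial interval 2.19 to 600, counting error only). With no filter on low counts neither passed, with edgeR adjusted p = 0.344 for Sfrp5 and 0.358 for Wif1. Sfrp5 (ENSMUSG00000018822) lies at 42197971 to 42202252 on the minus strand of chromosome 19 of mm10, and Wif1 (ENSMUSG00000020218) at 121033960 to 121100650 on the plus strand of chromosome 10.

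Notum, the Wnt lipase gene and itself a known target of canonical Wnt signalling, stood at 15.5, 3.67, 8.39 and 4.96 CPM in OB 1 to 4 and at 6.88, 8.03 and 3.41 CPM in control 1 to 3. The groups overlapped widely. The log2 fold change was 0.40 ± 0.52 (SE, edgeR adjusted p = 0.674), with log2 ratios of 1.17 in C1, -1.13 in C2 and 0.97 in the libraries with no C number. Of its exon bases 38.1% overlap Notumos on the opposite strand, and the counting ignored strand and dropped fragments that hit both genes. Notumos stood at 0.141 to 1.02 CPM in OB and 0.278 to 0.596 CPM in control (edgeR adjusted p = 0.940). Notum (ENSMUSG00000042988) lies at 120653788 to 120661175 on the minus strand of chromosome 11 of mm10.

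**Figure D4:**
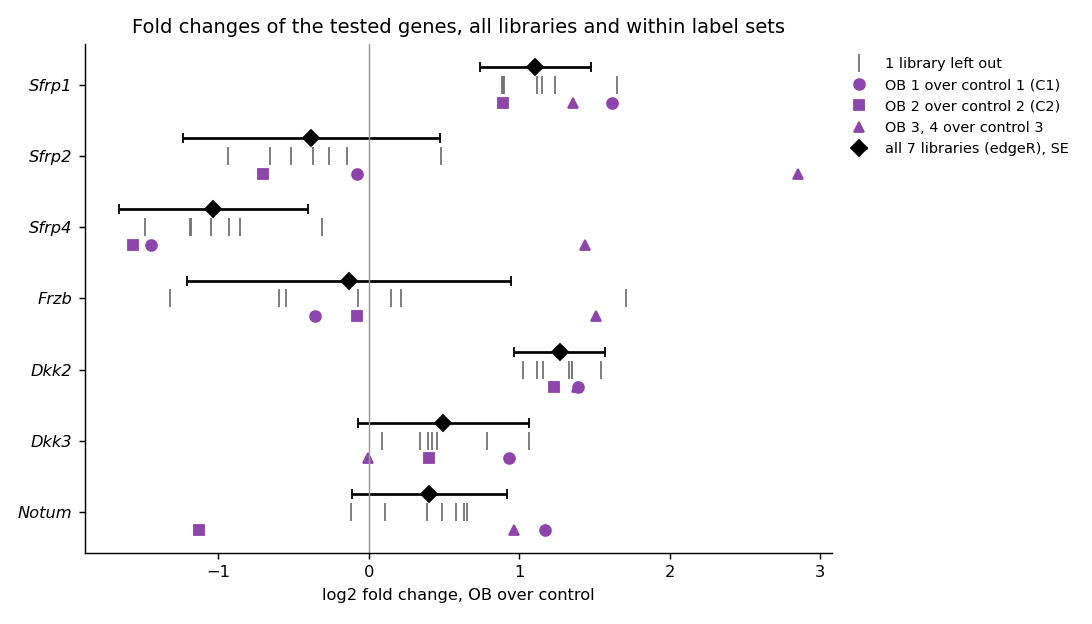
Log2 fold change of OB over control for each tested gene, with the fit to all 7 libraries and its SE (diamonds), the fits with 1 library left out (ticks) and the ratios within label sets (purple symbols). Dkk2 and Sfrp1 lie above 0 under every setting drawn, whereas each of the other 5 genes has label sets on both sides of 0.

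Genes with the most similar profiles were named by Pearson correlation of log2 CPM over the 7 libraries among 10343 genes. For Dkk2 they were Lrp11 and Slc38a7 (r = 0.99 for both), for Sfrp1 Fam83h and Prickle2 (0.96 for both), and for Sfrp2 Tmem94 (0.997) and Lama4 (0.99). For Frzb they were Fgfr3 (0.98) and Klhl29 (0.95), for Dkk3 Rabep1 (0.97) and Trub1 (0.96), for Sfrp4 B3gntl1 and Mamdc4 (0.97 for both), and for Notum Irx1 (0.97) and Babam2 (0.95). These are the highest of many correlations over few libraries that share treatment and label set, and they are given as a description.

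In the rest of the Wnt pathway, the number of calls depended on the tool. Over 5 lists with 83 genes, 59 were tested, 2 rose and 0 fell by edgeR, or 3.39% of those tested against 8.04% of all genes. With the replicate block 6 were higher and 1 lower, or 11.9% against 8.76% of all genes. Both DESeq2 and limma-voom called 6 higher and 5 lower, or 18.6%, against 16.5% and 15.1% of all genes. At an unadjusted p under 0.05, 11 were higher and 6 lower, or 28.8% against 25.2% of all genes. Ror1, a receptor of the non-canonical ligand Wnt5a, rose to 46.9 ± 7.01 CPM in OB (SD, n = 4), against 25.6 ± 2.30 CPM in control (SD, n = 3), and its log2 fold change was 0.87 ± 0.15 (SE, edgeR adjusted p = 0.0155). Ctnnb1, the β-catenin gene, rose to 709 ± 34.3 CPM in OB, against 513 ± 14.9 CPM in control, and its log2 fold change was 0.47 ± 0.10 (SE, edgeR adjusted p = 0.0294). The call of Ror1 ended without control 2 or OB 1 (adjusted p = 0.0599 and 0.0545) and among the C1 and C2 libraries (0.0556). That of Ctnnb1 ended under the replicate block (0.0555), with no filter (0.0667) and without any library except control 3 (0.0586 to 0.103).

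Among 17 other secreted or surface modulators, 9 were tested and 0 were called by edgeR, with 4 higher and 1 lower at an unadjusted p under 0.05. Of these modulators, 2 were called higher and 1 lower by DESeq2 and also by limma-voom, and 1 higher and 1 lower with the replicate block. The one with the highest level was Rspo2, an R-spondin gene whose product amplifies Wnt signalling, at 337, 301, 255 and 393 CPM in OB 1 to 4 and 748, 725 and 333 CPM in control 1 to 3 (log2 fold change -0.91 ± 0.28, edgeR adjusted p = 0.0907). Control 3 lay within the OB range and control 1 and 2 above it. Igfbp4, whose secreted product can also inhibit Wnt signalling, and Trabd2b, the gene of a membrane protease that acts on Wnt, were named after their values were seen. Igfbp4 averaged 108 ± 89.1 CPM in OB (SD, n = 4) and 25.3 ± 8.81 CPM in control (SD, n = 3) (edgeR adjusted p = 0.0837). It stood at 236, 34.0, 97.0 and 66.3 CPM in OB 1 to 4 and at 33.0, 27.1 and 15.7 CPM in control 1 to 3. The groups thus only just failed to overlap, between OB 2 and control 1. Every OB library lay above every control library for 13.2% of all genes tested. Trabd2b averaged 11.0 ± 4.54 CPM in OB and 4.86 ± 3.05 CPM in control (edgeR adjusted p = 0.173). Sost (sclerostin), another LRP5 and LRP6 antagonist gene of bone, had 0 counts in every library.

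Of 21 genes of Wnt ligands and their secretion, 10 were tested and 0 called by edgeR (3 higher and 1 lower at an unadjusted p under 0.05, 2 and 1 by DESeq2, 1 and 1 by limma-voom, 2 and 0 with the replicate block). The highest level was that of Wls, the Wnt carrier gene, at 347 ± 43.0 CPM in OB (SD, n = 4) and 407 ± 65.3 CPM in control (SD, n = 3). Of 16 receptor genes 15 were tested, and Ror1 was called by edgeR without a block (2 higher and 2 lower at an unadjusted p under 0.05, 1 and 2 by DESeq2 and by limma-voom, 2 and 0 with the replicate block). Of 13 intracellular components all were tested, and Ctnnb1 was called by edgeR without a block (1 higher and 2 lower at an unadjusted p under 0.05, 1 and 1 by DESeq2 and by limma-voom, 0 and 0 with the replicate block). Of 16 canonical target genes 12 were tested and 0 called by edgeR (1 higher and 0 lower at an unadjusted p under 0.05, 0 and 0 by DESeq2, 1 and 0 by limma-voom, 1 and 0 with the replicate block). Their highest level was that of Ccnd1, the cyclin D1 gene, at 256 ± 50.5 CPM in OB and 292 ± 121 CPM in control. Axin2, the negative-feedback gene often read as a gauge of the canonical pathway and named here after its values were seen, was rare, at 1.02, 1.76, 1.44 and 0.952 CPM in OB 1 to 4 and 0.660, 1.37 and 0.278 CPM in control 1 to 3 (edgeR adjusted p = 0.397). Median log2 fold changes of the tested genes were 0.44 for other modulators, 0.47 for ligands, 0.09 for receptors, -0.14 for intracellular components and 0.01 for targets, against -0.004 for all genes tested.

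**Figure D5:**
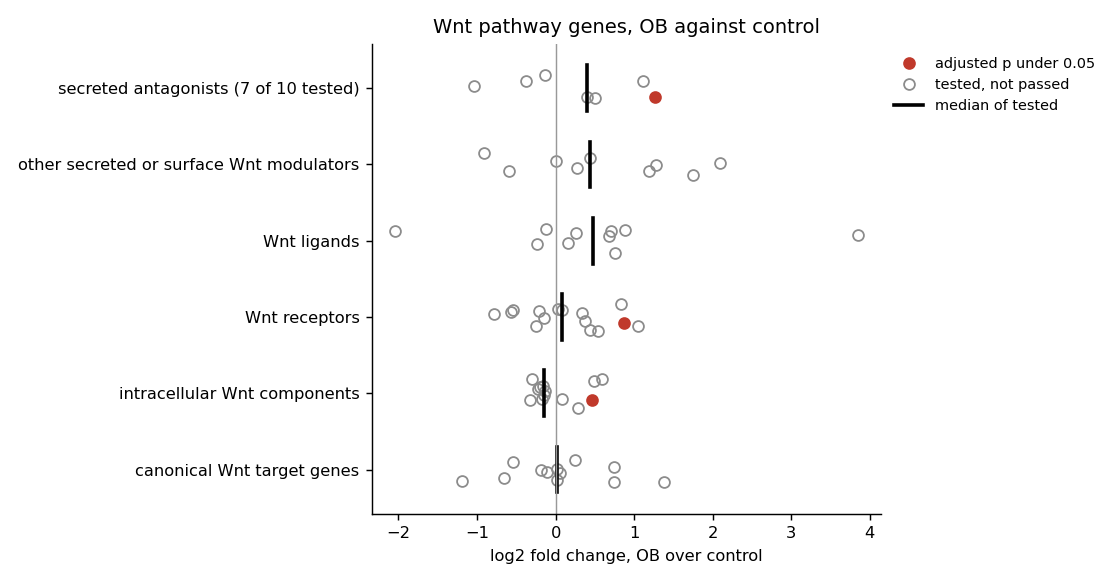
Log2 fold change of OB over control for each tested gene of the 10 secreted antagonists (7 tested) and of 5 further Wnt lists, with filled points for genes past the threshold and a bar for the median of each list. By edgeR on all 7 libraries without a block, Dkk2, Ror1 and Ctnnb1 are the filled points, all to the right of 0.

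Other programs moved with the groups and with control 3. Of 10 glucocorticoid receptor targets 8 were higher in OB by edgeR, where 4.32% of all genes were called higher. The summed level of the list was 2015 to 2949 CPM in OB and 346 to 560 CPM in control. All 12 cell cycle genes were lower by edgeR, where 3.72% of all genes were called lower. With the replicate block 11 were lower. Their summed levels were 409 to 604 CPM in OB and 902, 2325 and 2665 CPM in control 1, 2 and 3. Mki67 stood at 60.1 to 115 CPM in OB and 170 to 548 CPM in control. Summed adipocyte markers stood at 101 to 184 CPM in OB and 46.0 to 74.1 CPM in control. Of that adipocyte sum, Fabp4 held 32.8 to 57.8 CPM in OB and 4.56 to 7.46 CPM in control. Pparg held 47.7 to 64.2 CPM in OB and 36.1 to 39.2 CPM in control. Of the 8 adipocyte markers 4 were tested, and these 2 were called higher by edgeR, where 4.32% of all genes were called higher. The rest of the 8 were too rare to test or not called. Summed osteoblast markers stood at 219 to 791 CPM in OB and 465 to 682 CPM in control. Of that osteoblast sum, Spp1 alone held 101 to 675 CPM in OB and 336 to 582 CPM in control. Of the 8 osteoblast markers 4 were tested and 0 were called by edgeR, where 8.04% of all genes were called. The part of these programs in the levels of Dkk2, Sfrp1 and Sfrp2 was not tested.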

How the data were processed

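Per the labels' protocols, RNA was isolated with Trizol, and fragmented mRNA was made into libraries by the TruSeq v2 protocol. Trimmomatic, HISAT2, featureCounts and the mm10 build are named in the submitters' processing notes. Per the file headers, the deposited values are raw counts of fragments over the exons of Ensembl 94 genes, taken with featureCounts 1.6.4 with no option for strand, multi-mapping or overlap. The deposited exon length (another column) was used for levels per kilobase. The numbered columns were assigned by the order of inputs in the command on the table's header line, since those inputs equal the submitters' sample descriptions, and this order could not be checked independently.

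The main fit used edgeR 4.0.16 in R 4.3.3 (filterByExpr, TMM factors 0.981 to 1.024, quasi-likelihood test, Benjamini-Hochberg adjustment over 15441 genes, threshold 0.05). CPM is the count scaled to a common TMM-adjusted total. SEs were derived from each log2 fold change and the square root of its F. Log2 CPM used a prior count of 2. The fit was tested on simulated data. DESeq2 1.42.0, limma-voom (limma 3.58.1), other scalings, no filter, blocks and left-out libraries were alternatives. Between libraries of a group, chi-square per degree of freedom was 9.61 (OB 3 and OB 4) to 102, far above sampling noise, so each was counted as 1 replicate. Separate cultures are known only from the design text, so p-values reflect only how far these libraries spread.

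The main fit had no block, and replicate numbers were taken as pairs only in an alternative. The rule for it was that deviations from group means correlated above 0.1 in every same-numbered pair (0.17, 0.52 and 0.40 across genes). Some differently numbered pairs also passed this bar, OB 1 with control 2 at 0.209 and OB 4 with control 3 at 0.27. The rest of these ran from -0.469 to 0.0975. The rule therefore does not single out pairing by number, and for OB 1 the correlation was higher with control 2 than with control 1. OB 4 has no control of its number. The replicate block is given beside the counts of calls in the Wnt lists and the cell cycle list. Among single genes it is given for Dkk2, Sfrp1, Sfrp2 and Ctnnb1, and it changed the calls of Sfrp1 and Ctnnb1. Over the 5 Wnt lists edgeR called 6 higher and 1 lower with this block, against 2 and 0 without it. Calls of further list genes therefore changed as well, and those genes are not identified here. For other genes named as not called, such as Lrp5, Kremen1 and Rspo2, the result under the block is not shown. Promoter windows are from RefSeq on GRCm38.p6, the assembly of mm10, and letters were printed only where no deposited exon of the gene lies in them.

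The 10 genes, the lists and the tests were chosen with earlier results of these data known. Named were all 10, up to 3 called genes of each further list in order of p or else the gene of highest level per kilobase, the 2 genes most correlated with each tested one, and Tsc22d3, Fkbp5 and Mki67. From the glucocorticoid and cell cycle lists only totals and the genes fixed in any case are named. The markers named are Spp1, Fabp4, Pparg, Pdgfra, Col1a1, Adgre1, Tie1 and Epcam. Spp1 was the osteoblast marker of highest level per kilobase, and Adgre1, Tie1 and Epcam were at 0. Fabp4, Pparg and Pdgfra were the called markers of their lists. Adgre1, Tie1, Epcam, Col1a1, Lrp5, Lrp6, Kremen1, Kremen2, Igfbp4, Trabd2b, Sost and Axin2 fall outside the rule and were named after their values were seen.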

Additional observations from a re-analysis of the deposited data

Results flagged for a closer look

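Among 15 genes examined for a library far from the others of the OB group, 2 had one, and chance marks about 1 in 20 groups. Dkk2 stood at 14.7 CPM in OB 1, against 8.36 to 8.67 CPM in the other OB libraries. Without OB 1 its log2 fold change was 1.02 ± 0.26 (SE, edgeR adjusted p = 0.0960). Dkk3 stood at 3.46 CPM in OB 2, against 11.4 to 12.8 CPM in the other OB libraries, and control 2, which shares its label set, was the lowest control library at 2.62 CPM. Without OB 2 the log2 fold change of Dkk3 was 0.79 ± 0.48 (edgeR adjusted p = 0.376). The part of the label set in these values was not tested.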

How the results depend on the processing

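Dkk2 and Sfrp1 kept a positive log2 fold change under every alternative tried. The number of the 10 genes called higher was 2 by DESeq2, the replicate block and the label set block, 0 among the C1 and C2 libraries, 3 among the libraries with no C number (1 control, added after seeing the data) and 0 to 1 with 1 library left out (Dkk2 without control 1, Sfrp1 without control 2), and none was called lower in any of these. Over all genes, 1326 were higher and 1219 lower by DESeq2, 1247 and 1081 by limma-voom, with the label set block 1433 and 1256, and the libraries with no C number 3052 and 3413. The C1 and C2 libraries gave 1030 higher, and leaving out 1 library gave 190 to 575 higher and 104 to 703 lower, the fewest without control 2 or OB 1. Signs turned only for genes not called by the main test. For Sfrp2 the log2 fold change was 0.42 under the replicate block, 0.59 under the label set block, 2.84 in the libraries with no C number and -0.94 to 0.48 with 1 library left out. For Frzb it was 0.27 under the label set block, 1.51 with no C number and -1.32 to 1.71 with 1 left out. For Notum it was -0.044 by limma-voom and -0.12 to 0.65 with 1 left out. For Sfrp4 it was 1.40 and for Dkk3 -0.020 with no C number. The cause of these changes was not tested. Scaling moved the median of all genes by less than 0.1. The replicate block changed the call of Sfrp1 among the 10 genes and no other. At this depth Dkk1, Sfrp5 and Wif1 did not pass the filter of the main fit. With no filter Sfrp5 and Wif1 were fitted and not called, and Dkk1 had no counts to fit.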
